A study of Mus musculus with 6 samples.

Results

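The DNAJ proteins, also called HSP40 or J-domain proteins, are the co-chaperones that hand unfolded or misfolded proteins to HSP70 chaperones. Members were the rows of the count table whose symbol is Dnaja, Dnajb or Dnajc with a number, with a summed count of at least 60 over the 6 libraries. This gave 38 members among 17191 genes, and 40 genes had a matching symbol at any count. Dnajc28, with a summed count of exactly 60, was the last member inside the rule, while Dnajc6, with 8, and Dnajb13, with 4, lay outside it. All members are annotated as protein-coding in GENCODE M21.

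Messenger RNA was sequenced from cells of subcutaneous CT26 tumours, a colorectal carcinoma line of the mouse, grown in female BALB/c mice 6 to 8 weeks old. The control group was given vehicle and the other group TP-18, a compound named by its code alone, at 50 mg/kg by mouth once a day, both for 3 weeks from a tumour volume of 100 to 200 mm3. Each group has 3 libraries, named here vehicle 1 to 3 and TP-18 1 to 3, and the labels do not say whether each came from its own mouse. The sources name the cells in 3 ways: sorted CD11b+F4/80+CD206+ macrophages, CD11b+ cells taken on magnetic beads, and the CT26 line. No allele or transgene is named, and both groups share the tumour line and the host strain.

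All 10 macrophage markers of the list used here had counts in every library, with summed levels of 3683 to 7948 CPM (counts scaled to the library size) in vehicle and 4264 to 6440 CPM in TP-18 libraries. Among epithelial and carcinoma markers Cdx1 was absent or at 0, Epcam, Krt8 and Krt19 each stayed at or below 1.57 CPM in every library, and Krt20 supplied most of the summed 247 to 532 CPM. The list also holds Krt18 and Cdh1. Of its 4 tested genes 3 had negative log2 fold changes and 1 a positive one, of 1.26. That gene was higher at an edgeR unadjusted p under 0.05 and without overlap in CPM (7.56% and 11.6% of all tested genes). Total counts ran from 16371128 to 17597645 per library. Fewer cells of a type and less RNA per cell cannot be told apart in such bulk samples.

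The J domain of each member stimulates the ATPase of an HSP70 partner, which then closes on the client protein. Class A and class B members bind clients themselves, whereas class C members share little beyond the J domain and bring HSP70 to one place or task, such as the ribosome, the import channel of mitochondria or a vesicle. In the cytosol HSF1, the heat shock factor, induces several class A and B members together with HSP70 itself, and in the endoplasmic reticulum the unfolded protein response induces another set.

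Stretches upstream of a RefSeq gene start are shown for the 4 members with the most negative fold changes, Dnajb2, Dnajb1, Dnajb4 and Dnaja1. Dnajc3 is shown as well, as the one matched member with a full endoplasmic reticulum stress element there. Each stretch is the 250 bases before such a start on GRCm38.p6, written 5′ to 3′ along the gene. Capitals mark a pair of facing heat shock units (GAANNTTC or TTCNNGAA) in Dnajb4 and Dnaja1, and the endoplasmic reticulum stress element (CCAAT and CCACG with 9 bases between them) in Dnajc3.
Dnajb2 promoter (chr1:75236173-75236422, plus strand): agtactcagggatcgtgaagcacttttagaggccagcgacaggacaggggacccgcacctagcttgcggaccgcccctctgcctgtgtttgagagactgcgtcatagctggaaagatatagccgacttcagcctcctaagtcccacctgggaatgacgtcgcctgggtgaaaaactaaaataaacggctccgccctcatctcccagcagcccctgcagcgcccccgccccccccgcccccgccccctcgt
Dnajb1 promoter (chr8:83607925-83608174, plus strand): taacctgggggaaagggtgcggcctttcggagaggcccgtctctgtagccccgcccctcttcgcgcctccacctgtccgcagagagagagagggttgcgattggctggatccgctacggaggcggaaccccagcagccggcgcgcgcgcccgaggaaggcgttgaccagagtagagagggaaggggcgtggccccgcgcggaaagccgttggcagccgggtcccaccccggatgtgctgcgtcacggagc
Dnajb4 promoter at the inner start (chr3:152193846-152194095, minus strand): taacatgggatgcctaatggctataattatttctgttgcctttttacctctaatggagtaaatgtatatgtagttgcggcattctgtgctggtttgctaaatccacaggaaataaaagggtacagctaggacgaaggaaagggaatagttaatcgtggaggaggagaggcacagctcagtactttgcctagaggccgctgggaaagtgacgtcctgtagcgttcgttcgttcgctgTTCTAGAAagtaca
Dnajb4 promoter at the 5′ end of the gene (chr3:152210084-152210333, minus strand): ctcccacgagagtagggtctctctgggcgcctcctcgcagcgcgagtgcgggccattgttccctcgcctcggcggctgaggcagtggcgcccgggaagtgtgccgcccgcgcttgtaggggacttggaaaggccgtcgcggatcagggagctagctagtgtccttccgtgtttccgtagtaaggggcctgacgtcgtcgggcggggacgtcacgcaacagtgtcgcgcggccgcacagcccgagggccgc
Dnaja1 promoter (chr4:40722218-40722467, plus strand): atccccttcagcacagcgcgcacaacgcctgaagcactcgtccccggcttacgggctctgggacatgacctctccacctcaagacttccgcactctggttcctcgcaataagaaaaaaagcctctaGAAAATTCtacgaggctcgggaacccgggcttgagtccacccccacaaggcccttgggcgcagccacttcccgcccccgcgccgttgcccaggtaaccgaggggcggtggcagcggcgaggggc
Dnajc3 promoter (chr14:118937682-118937931, plus strand): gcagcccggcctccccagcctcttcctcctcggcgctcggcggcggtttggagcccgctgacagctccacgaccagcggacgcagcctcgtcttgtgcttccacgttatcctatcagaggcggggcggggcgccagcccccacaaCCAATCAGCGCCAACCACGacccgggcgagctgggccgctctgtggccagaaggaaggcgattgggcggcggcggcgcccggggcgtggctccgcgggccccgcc

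Where RefSeq lists several starts, the window shown is the one with a motif or, for Dnajb2 and Dnajb1, the one farthest upstream. For Dnajb4 both windows are shown: the one with the motif lies inside the annotated gene, and the one at its 5′ end holds none of the motifs searched. The windows of Dnaja1, Dnajb1 and Dnajb2 that are not shown hold none either. The Dnaja1 window shown, with its motif, also lies inside the annotated gene, whose GENCODE span begins at base 40722150. RefSeq gave such windows for 31 of the 38 members, some with more than one start, and the motifs were searched on both strands, and a gene counted once whatever its number of matches or starts. A facing pair of heat shock units stood in at least one window of 6 members (19.4%), which were Dnaja1, Dnaja4, Dnajb4, Dnajb6, Dnajc10 and Dnajc27, against 14.5% of the 27025 genes in the same table. In Dnaja1 it began 124 bases before the start shown and in Dnajb4 14 bases before it. The stress element was found in 1 member, Dnajc3, 105 bases before its start, against 0.130% of genes. The cAMP response element (TGACGTCA) was found in Dnajc27 alone among the members, against 1.77% of genes. A match is a string of letters and not a shown site, and the members with a heat shock pair did not share a direction: Dnaja1, Dnajb4 and Dnajb6 had negative log2 fold changes and Dnaja4, Dnajc10 and Dnajc27 positive ones.

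The design sets TP-18 against vehicle, and 1 of 37 tested DNAJ members passed the test in that comparison. Dnajb2 fell 2.33-fold, and no member rose. Besides Dnajb2, 6 members had lower CPM in every TP-18 library than in any vehicle library without passing the test. They were Dnajb1, Dnajb4, Dnaja1 and Dnaja2, class A and B proteins of the cytosol and nucleus, and Dnajc3 and Dnajb11 of the endoplasmic reticulum. Of all tested genes 11.7% were separated in this way. Genes were tested with edgeR's quasi-likelihood test over 12721 genes. A gene was called at an adjusted p under 0.05, which 0.110% of all genes met, 0.0865% as lower and 0.0236% as higher. Of the 38 members only Dnajc28 was too low to be tested. At an unadjusted p under 0.05, 5 members were lower and 1 higher, or 16.2% in all, near the 16.3% of all tested genes (8.70% lower and 7.56% higher). The median log2 fold change of the members was -0.04, against 0.02 over all tested genes.

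Signs near 0 depended on how libraries were scaled. TMM factors, used throughout unless stated, gave 21 negative and 16 positive members, against 6026 and 6695 of the 12721 tested genes. Scaling by library totals moved the median of all genes from 0.02 to 0.20 and gave 10 negative and 27 positive members. Of all tested genes 3591 were then negative and 9130 positive. At an unadjusted p under 0.05, 4 members were then lower and 6 higher (3.47% and 17.3% of all genes). Dnajb2, Dnajb1, Dnajb4, Dnaja1 and Dnaja2 were negative with TMM factors, RLE factors and library totals.

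**Figure D1:**
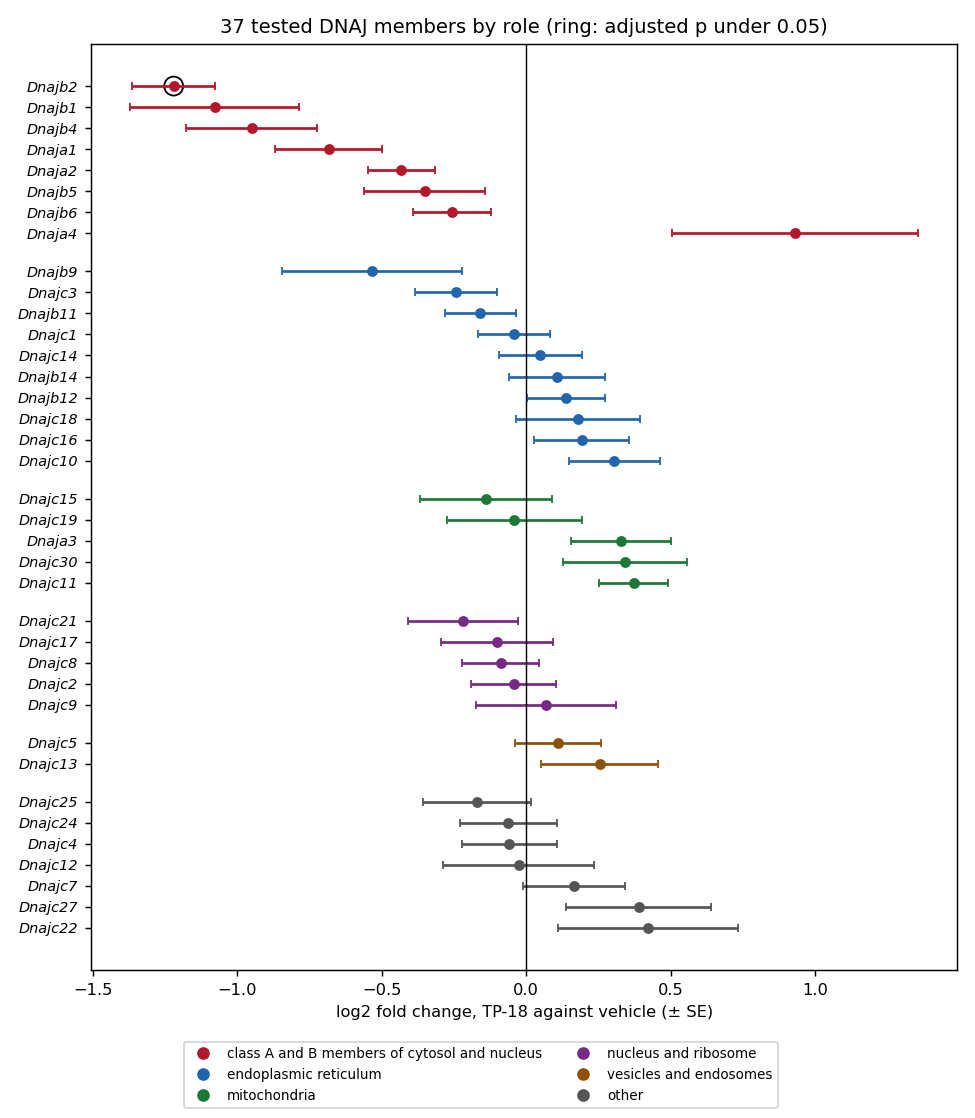
Log2 fold change of TP-18 against vehicle for the 37 tested DNAJ members, one point per member with its SE, grouped by role and sorted within each group. Of the 8 class A and B members of cytosol and nucleus, 7 lie left of 0 and Dnaja4 right of it, and the ring marks Dnajb2, the one member past the threshold.

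Dnajb2 is a class B co-chaperone with ubiquitin-binding motifs that passes clients to the proteasome. Its level was 73.7, 66.6 and 86.0 CPM in vehicle 1, 2 and 3 and 35.1, 30.4 and 31.6 CPM in TP-18 1, 2 and 3. Every TP-18 library lay below every vehicle library, and the lowest vehicle level was well above the highest TP-18 level. The means were 75.5 ± 9.81 and 32.4 ± 2.43 CPM (SD, n = 3 each). On the log2 scale Dnajb2 changed by -1.22 ± 0.14 (SE), and edgeR gave an adjusted p = 0.0428. The fold changed little when any library was left out, from -1.32 to -1.13 on the log2 scale, but the call ended in all 6 such fits of 5 libraries (edgeR adjusted p = 0.0758 to 0.221). It also ended with library totals as scaling (edgeR adjusted p = 0.0651), with a replicate block (0.0903) and in both limma fits on FPKM values (limma adjusted p = 0.0782 and 0.0644), and stayed under RLE factors, the other filters, DESeq2 and limma-voom. The gene (Entrez 56812) spans chr1:75236406-75245692 on the plus strand of GRCm38 and shares no exonic bases with another GENCODE gene.

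Dnajb1 is the main heat-inducible HSP40 of the cytosol and the most abundant member in these libraries. Its level was 775, 1168 and 1186 CPM in vehicle 1, 2 and 3 and 714, 407 and 361 CPM in TP-18 1, 2 and 3. The TP-18 libraries were all lower, but TP-18 1 came close to vehicle 1, and on the FPKM scale, which uses library totals, the groups overlapped, with 231 FPKM in vehicle 1 and 233 FPKM in TP-18 1. The difference of -1.08 ± 0.29 (log2, SE) did not pass (edgeR adjusted p = 0.194). It was -1.44 without TP-18 1 and -0.90 without TP-18 3. The gene (Entrez 81489) spans chr8:83608193-83612653 on the plus strand.

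Dnajb4, a close relative of Dnajb1, had 307, 356 and 365 CPM in the vehicle and 230.1, 177 and 124 CPM in the TP-18 libraries, in the order of their numbers. The groups did not overlap, and TP-18 1 was again the TP-18 library nearest to vehicle. The log2 fold change of -0.95 ± 0.23 (SE) did not pass (edgeR adjusted p = 0.158). The gene (Entrez 67035) spans chr3:152178511-152210302 on the minus strand.

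Dnaja1 is a class A co-chaperone of HSC70, the constitutive cytosolic HSP70. It had 479.9, 529 and 547 CPM in vehicle 1, 2 and 3 and 411, 274 and 284 CPM in TP-18 1, 2 and 3. TP-18 1 stood between the other TP-18 libraries and the vehicle libraries. The log2 fold change of -0.68 ± 0.19 (SE) did not pass (edgeR adjusted p = 0.194). The gene (Entrez 15502) spans chr4:40722150-40737149 on the plus strand. Of its annotated exonic bases 7.05% are shared with Smu1 on the opposite strand, and GENCODE lists a pseudogene, Dnaja1-ps. Reads in such stretches cannot be assigned with certainty, because the use of strand in counting is not given in the sources used here.

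Dnaja2, another class A partner of HSC70, varied little between libraries of a group. It had 219, 222 and 225 CPM in the vehicle and 167, 164 and 162 CPM in the TP-18 libraries. All 3 TP-18 libraries lay below vehicle within a narrow band, so TP-18 1 did not stand apart for this gene. The log2 fold change of -0.43 ± 0.12 (SE) did not pass (edgeR adjusted p = 0.193), and it was -0.25 with library totals and on log2(FPKM + 1). The gene (Entrez 56445) spans chr8:85537633-85555344 on the minus strand.

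**Figure D2:**
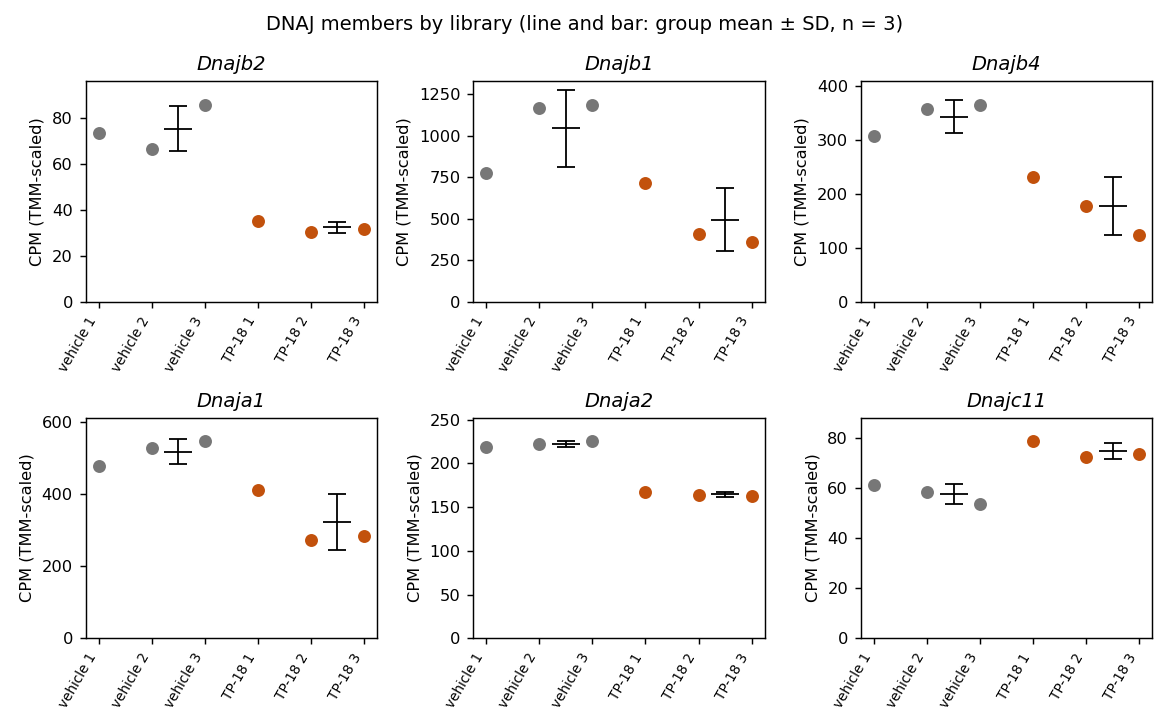
Level of 6 DNAJ members in each library, in TMM-scaled CPM on axes that start at 0, with a line and bar beside each group for its mean ± SD (n = 3). Dnajb1, Dnajb4 and Dnaja1 show TP-18 1 above TP-18 2 and 3, Dnaja2 and Dnajb2 show 3 close TP-18 libraries, and Dnajc11 is higher in each TP-18 library.

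DESeq2 called Dnajb2, Dnajb1, Dnajb4, Dnaja1 and Dnaja2, 5 members in all, as lower and none as higher, where it called 2.73% of all genes lower and 1.30% higher. Its adjusted p was 0.00840 for Dnajb1, 0.00451 for Dnajb4, 0.0243 for Dnaja1 and 0.0305 for Dnaja2. These 5 were also the members that edgeR placed lower at an unadjusted p under 0.05. Among the 8 class A and B members of cytosol and nucleus the median log2 fold change was -0.56, or -0.38 with library totals, and 7 of 8 were negative under either scaling. The other 29 tested members had a median of 0.05, with 14 negative and 15 positive. With library totals it was 0.23, with 3 negative and 26 positive, against 0.20, 3591 and 9130 for all tested genes. These medians are descriptions, since the roles were assigned with earlier results of these data known.

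The remaining members of the cytosolic group were Dnajb5, a relative of Dnajb1, Dnajb6, which holds back protein aggregation, and Dnaja4. Dnajb6 had 78.4 to 92.2 CPM in vehicle and 65.6 to 79.9 CPM in TP-18 libraries, and Dnajb5 stayed between 8.84 and 14.0 CPM. Both overlapped between groups. Dnaja4 was the rarest tested member, with 0.983, 2.08 and 1.65 CPM in the vehicle and 3.29, 3.74 and 1.97 CPM in the TP-18 libraries. Its log2 fold change of 0.93 ± 0.43 (SE) was the most positive of all members and did not pass (edgeR adjusted p = 0.330). The groups overlapped in CPM but not in FPKM, and 44.1% of its annotated exonic bases are shared with Wdr61 on the opposite strand.

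The list for the endoplasmic reticulum holds lumenal members and membrane members such as Dnajb12 and Dnajb14, whose J domain faces the cytosol. None of its 10 members passed at either p threshold, with 0 of 10 called by DESeq2, and log2 fold changes ran from -0.53 to 0.31. Dnajb9, which serves the removal of misfolded proteins and holds the sensor IRE1 in check, had 92.7, 158 and 172 CPM in the vehicle and 99.6, 129 and 62.5 CPM in the TP-18 libraries. Vehicle 1 and TP-18 3 were the low libraries of their groups and the groups overlapped (log2 fold change -0.53 ± 0.31 SE, edgeR adjusted p = 0.435). That value was -0.30 without TP-18 3, -0.80 without TP-18 2 and -0.35 with library totals. Dnajc3, an inhibitor of the kinase PERK, had 125, 126 and 158 CPM against 116, 109 and 120.4 CPM. Dnajb11, a soluble partner of the HSP70 BiP, had 97.0, 93.2 and 110 CPM against 90.5, 89.2 and 88.9 CPM. In both the TP-18 libraries lay below vehicle in CPM but overlapped with it in FPKM, and the log2 fold change of Dnajb11 went from -0.16 to 0.02 with library totals. Dnajc10, a reductase that opens disulfide bonds of misfolded proteins, lay the other way, with 93.0 to 124 CPM in vehicle and 117 to 144 CPM in TP-18 libraries.

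Of 5 tested mitochondrial members 3 had positive values, and all 5 with library totals, against 6695 and 9130 of the 12721 tested genes. Of the 5, 1 was higher at an edgeR unadjusted p under 0.05, Dnajc11, against 7.56% of all tested genes. None was past the adjusted threshold in edgeR or DESeq2. Dnajc11, a protein tied to the organisation of cristae, had 61.4, 58.5 and 53.5 CPM in the vehicle and 78.7, 72.3 and 73.5 CPM in the TP-18 libraries. The groups did not overlap, and the log2 fold change was 0.37 ± 0.12 (SE; edgeR adjusted p = 0.225). The gene (Entrez 230935) spans chr4:151933691-151982137 on the plus strand. Dnaja3, the class A member of the matrix, had 36.5, 36.7 and 25.5 CPM against 40.6, 39.1 and 44.3 CPM, again without overlap (edgeR adjusted p = 0.390). Dnajc15 and Dnajc19, which belong to the protein import motor, overlapped between groups, with log2 fold changes of -0.14 and -0.04 (0.04 and 0.14 with library totals). Dnajc30 had a log2 fold change of 0.34, and 26.2% of its exonic bases are shared with Bud23 on the opposite strand.

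The 5 members of the nucleus and ribosome lay between -0.22 and 0.07 on the log2 fold scale. Dnajc8, a splicing-associated protein, had 90.8 to 115 CPM in vehicle and 94.4 to 95.1 CPM in TP-18 libraries. Dnajc9, a histone chaperone, had 27.1 to 39.5 and 24.9 to 44.1 CPM, and Dnajc2 and Dnajc21, which act at the ribosome, also overlapped between groups. On vesicles Dnajc5, the cysteine string protein of exocytosis, had 148, 176 and 193 CPM against 181, 203 and 175 CPM, and Dnajc13, a regulator of endosomal sorting, had 74.9 to 124 and 119 to 137 CPM. None of these passed (smallest edgeR adjusted p = 0.561). The 7 members outside these groups ran from -0.17 for Dnajc25 to 0.42 for Dnajc22 and none passed.

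Counted by separation rather than by p, 7 members had every TP-18 library below every vehicle library in CPM and 2 above, Dnajc11 and Dnaja3, against 11.7% and 11.6% of all tested genes (23.3% in either direction). In FPKM the counts were 4 below, which were Dnajb2, Dnajb4, Dnaja1 and Dnaja2, and 14 above, against 4.76% and 23.5%.

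**Figure D3:**
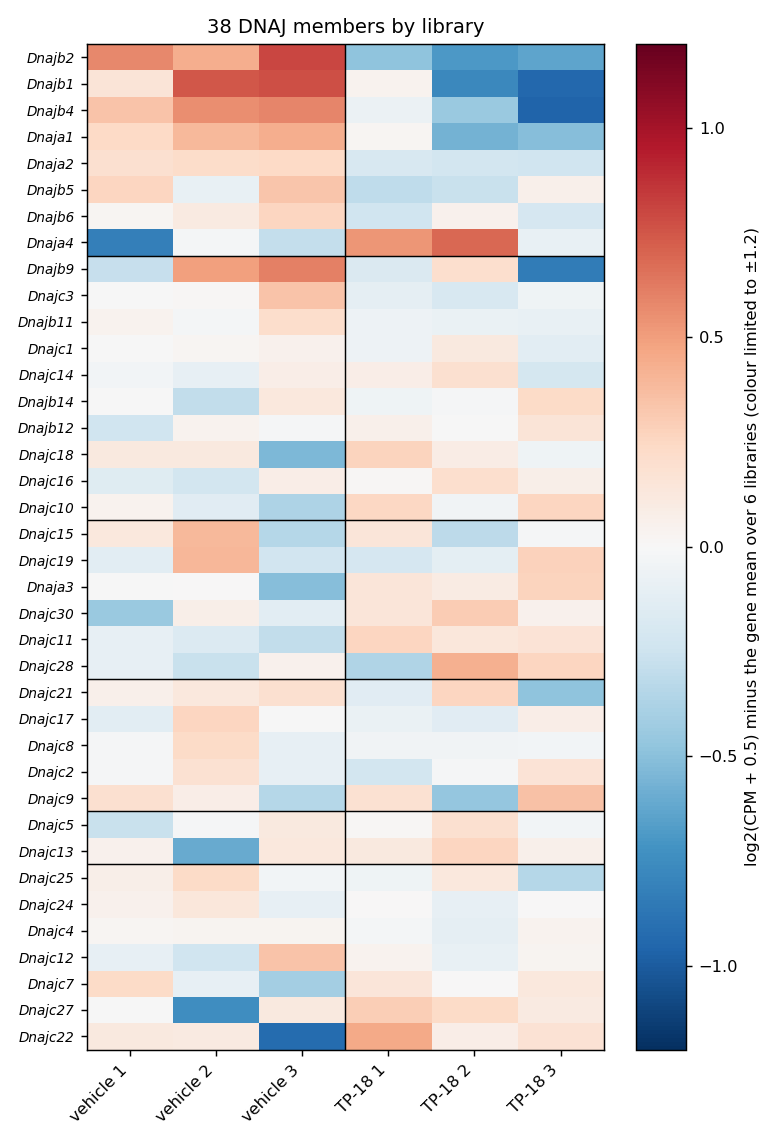
Level of all 38 members in each library as log2(CPM + 0.5) minus the mean of the gene over the 6 libraries, red for above and blue for below, with horizontal lines between roles and a vertical line between groups. The top rows, Dnajb2 to Dnaja2, are red in vehicle and pale or blue in TP-18, with TP-18 1 paler than TP-18 2 and 3 for Dnajb1, Dnajb4 and Dnaja1.

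Levels can be set between genes only per length, in the deposited FPKM values. Averaged over the 6 libraries Dnajb1 led with 233 FPKM, followed by Dnaja1 with 115, Dnaja2 with 65.3, Dnajb9 with 63.0, Dnajc8 with 62.3 and Dnajb4 with 41.2 FPKM. Dnaja2, Dnajb9 and Dnajc8 did not differ beyond their spread, with 59.1 to 71.7, 35.8 to 84.9 and 53.5 to 68.4 FPKM over the 6 libraries. Dnajb2 stood at rank 15 with 21.9 FPKM. Dnajb1 made up 27.0 ± 3.76% of the summed FPKM of the members in vehicle and 17.1 ± 4.64% in TP-18 libraries (SD, n = 3 each), at 22.7, 28.9 and 29.6% and at 22.4, 14.9 and 13.9%. The groups did not overlap, but TP-18 1 held nearly the share of vehicle 1.

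The partners of the DNAJ proteins were read from lists of HSP70 genes and their regulators. Of 11 HSP70 ATPases 1 fell, none rose and 10 did not pass, with a median log2 fold change of -0.13 that was 0.05 with library totals. It was -0.48 without TP-18 2, -0.43 without vehicle 2, -0.22 without vehicle 1, -0.08 without TP-18 3 and -0.06 without vehicle 3. The one that fell was Hspa1b, an inducible HSP70, with 1014, 793 and 1034 CPM in the vehicle and 364, 256 and 335 CPM in the TP-18 libraries (log2 fold change -1.57 ± 0.19 SE, edgeR adjusted p = 0.0428). Its call ended in all 6 fits that left out 1 library (edgeR adjusted p = 0.0808 to 0.221), with library totals (0.0651), with a replicate block (0.0502) and in both limma fits on FPKM values, while its log2 fold change stayed between -1.70 and -1.39. Hspa1a, its nearly identical neighbour, had 741, 255 and 475 CPM against 183, 149 and 238 CPM, and reads of the pair cannot be split with certainty. Hspa8, which encodes HSC70, had 2888, 2951 and 2777 CPM against 1815, 1461 and 1674 CPM (edgeR adjusted p = 0.0972). No TP-18 library reached a vehicle library for these 3 genes in CPM, and Hspa1a overlapped in FPKM. The highest TP-18 library was TP-18 1 for Hspa1b and Hspa8 and TP-18 3 for Hspa1a. Not all HSP70 ATPases went this way: 6 of the 11 were negative and 5 positive (5 and 6 with library totals). Their log2 fold changes ran from -1.57 to 1.86. At an edgeR unadjusted p under 0.05, 4 were lower and 1 higher (8.70% and 7.56% of all tested genes). Without overlap in CPM, 4 were lower and 1 higher (11.7% and 11.6%).

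Hspa5, the HSP70 of the endoplasmic reticulum also called BiP, had 3725, 4353 and 4348 CPM in the vehicle and 2445, 2797 and 2391 CPM in the TP-18 libraries, without overlap (edgeR adjusted p = 0.124). Hspa9, the HSP70 of mitochondria, had 778 to 944 CPM in vehicle and 746 to 962 CPM in TP-18 libraries.

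Among 13 nucleotide exchange factors, which open HSP70 and release the client, none passed, 10 had negative values (8 with library totals) and the median was -0.23 (-0.06 with library totals). Hsph1, a heat-inducible exchange factor, had 1071, 1221 and 1463 CPM in the vehicle and 774, 409.8 and 389 CPM in the TP-18 libraries, with the order of libraries seen for Dnajb1 (edgeR adjusted p = 0.150). Bag3, which links HSP70 to autophagy, had 228, 280.1 and 318 CPM against 197, 171 and 127 CPM (edgeR adjusted p = 0.196). Of 14 genes of HSF1, HSP90 and the small heat shock proteins none passed, while all 14 were negative, 13 with library totals, with a median of -0.41 (-0.23). Hsf1 itself had 35.2 to 53.7 and 34.5 to 42.8 CPM. Over all 12 endoplasmic reticulum stress targets the median was -0.33 (-0.15 with library totals), 11 were negative (9) and none passed. At an edgeR unadjusted p under 0.05, 4 exchange factors, 8 of the 14 genes listed with HSF1 and 6 stress targets were lower (8.70% of all tested genes). Without overlap in CPM, 7, 11 and 6 of them were lower (11.7%). None was higher by either count. In FPKM 2, 4 and 4 were lower without overlap (4.76%) and 3, 0 and 1 higher (23.5%). DESeq2 called 4 of the 11 HSP70 ATPases lower (Hspa1a, Hspa1b, Hspa5 and Hspa8) and 2 of the 13 exchange factors (Hsph1 and Bag3). It also called lower 4 of the 14 genes listed with HSF1 (Hsp90aa1, Hspb1, Hspe1 and Cacybp) and 1 of the 12 stress targets (Xbp1). It called none of these genes higher, and of all genes 2.73% lower and 1.30% higher.

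**Figure D4:**
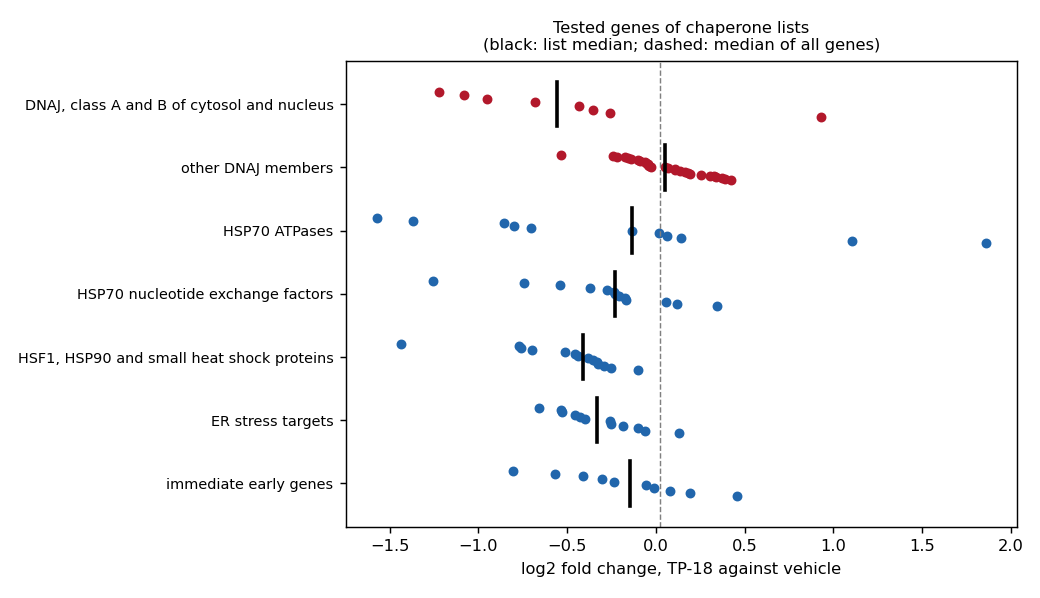
Log2 fold change of TP-18 against vehicle for each tested gene of the DNAJ groups and of chaperone and stress lists, one point per gene, with the median of the list as a black line and the median of all tested genes as a dashed line. The cytosolic DNAJ group has a median of -0.56, the other DNAJ members 0.05, and the genes of HSF1, HSP90 and the small heat shock proteins -0.41.

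Some markers of other cells and of handling differed at an unadjusted p under 0.05 or in DESeq2, without any passing the edgeR test. The summed levels of the skin and skeletal muscle list and of the immediate early genes overlapped between the groups. DESeq2 called Col1a1, Col1a2, Lum and Postn of the fibroblast list, Cpa3, Tpsb2 and Cma1 of the mast cell list and Kdr of the endothelial list as higher. It called Zbtb46 of the dendritic cell list and Btg2 of the immediate early genes as lower. Of all genes DESeq2 called 1.30% higher and 2.73% lower. All 9 fibroblast and pericyte markers had positive log2 fold changes. Of them 7 (77.8%) were higher at an edgeR unadjusted p under 0.05, against 7.56% of all tested genes. None was at 0, and their summed level was 745 to 1211 CPM in vehicle and 1501 to 1864 CPM in TP-18 libraries. The 5 mast cell and basophil markers summed to 0.189 to 4.12 CPM and 7.70 to 26.6 CPM, with Ms4a2 at 0 in all 3 vehicle libraries. The skin and skeletal muscle list, of which Krt14 was absent or at 0, summed to 32.9, 57.6 and 46.0 CPM in the vehicle and 43.4, 8.19 and 7.04 CPM in the TP-18 libraries. TP-18 1 thus lay within the range of the vehicle libraries and TP-18 2 and 3 below it. None of the 3 tested genes of this list had an edgeR unadjusted p under 0.05. Immediate early genes, which respond to tissue dissociation, summed to 9217 to 10470 and 8380 to 10079 CPM, with 7 of 10 negative (5 with library totals). At an edgeR unadjusted p under 0.05, 1 was higher (10%) and 2 lower (20%), against 7.56% and 8.70% of all tested genes. The part of these cells and of handling in the lower levels of Dnajb2, Dnajb1, Dnajb4 and Dnaja1 was not tested.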

How the data were processed

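The authors deposited raw counts per gene and, in a separate table, FPKM values for 6 libraries. The tools listed per the submitters' processing notes are HTSeq, fastp and HISAT2, and the build is GRCm38. Roles, versions and annotation release are not given in the sources used here. Each FPKM value equalled the deposited count divided by the library total and 1 length per gene. The labels' protocols name the VAHTS Universal V6 kit.

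The count test was edgeR 4.0.16 under R 4.3.3 (filterByExpr at count 10 and total 15, TMM factors, quasi-likelihood test without covariates, Benjamini-Hochberg over 12721 genes). CPM uses TMM-scaled library sizes, and each SE is |log2 fold change| over the root of the F statistic. The labels do not tie libraries to mice, so p-values reflect only how these samples vary, in part perhaps technically. Counts of replicate libraries differed by more than sampling noise. On simulated counts for this comparison, over 12574 genes, the test found 54 of 67 genes shifted 4-fold. It found 8 of 67 at 2-fold and 2 of 66 at 1.5-fold, and 5 of its 69 calls were false.

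Alternatives were RLE factors, library totals, other filters, DESeq2 1.42.0, limma 3.58.1 (voom, log2(FPKM + 1), log2(FPKM + 0.1)), a replicate block and each library left out. The members, roles and lists were chosen with earlier results of these data known. Named members were those past the threshold, those with an unadjusted p under 0.05 and separate groups, the 6 with the highest FPKM and the most abundant of each role. Others named were chosen after their values were seen. Named partners were fixed as Hspa1a, Hspa1b, Hspa8, Hspa5, Hspa9, Hsph1, Bag3 and Hsf1. Other marker lists were also computed, with these median log2 fold changes: neutrophil 0.02 over 5 tested genes (-0.63 without TP-18 2, 0.54 without vehicle 2), dendritic cell -1.17 over 3 (-1.30 to -0.89 without any 1 library), T and NK cell -0.05 over 6 (1.93 without vehicle 1, -0.63 without vehicle 2), B cell 1.35 over 2 (2.09 without vehicle 1) and endothelial cell 0.57 over 7 (0.04 without vehicle 1, 1.77 without vehicle 2). Positions are from GENCODE M21 and promoter sequences from RefSeq on GRCm38.p6. The list of J-domain proteins with other names is not reported here.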

Additional observations from a re-analysis of the deposited data

How the results depend on the processing

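Genes called lower and higher numbered 11 and 3 in the edgeR test. They numbered 1 and 3 with library totals as scaling, 20 and 7 with no filter, 342 and 163 with DESeq2, and 1 and 1 in both limma fits, on log2(FPKM + 1) and on log2(FPKM + 0.1). With a replicate block 0 genes were lower and 3 higher, and the number of lower DNAJ members went from 1 to 0, with Dnajb2 at an edgeR adjusted p = 0.0903. Deviations from the group means of libraries with the same number correlated at 0.20, 0.39 and -0.15. Vehicle 1 correlated best with TP-18 3 (0.51), vehicle 2 with TP-18 2 (0.39) and vehicle 3 with TP-18 2 (0.30). Deviations from a mean of 3 libraries depend on each other, so these values do not settle whether the numbers pair the libraries. Without any 1 library, edgeR called 0 to 5 genes lower and 0 to 3 higher, with 1169 to 2488 at an unadjusted p under 0.05. DNAJ members called lower numbered 0 with library totals and in both limma fits on FPKM values, 5 with DESeq2, and 0 without any 1 library. None was called higher under any of these settings. The median of the members was -0.04, became 0.13 with library totals, 0.13 on log2(FPKM + 1) and 0.13 on log2(FPKM + 0.1), and ran from -0.082 to 0.0042 without any 1 library. RLE factors, a filter on CPM of at least 1 in 3 libraries and limma-voom changed none of these calls of members. In simulated counts for this comparison few 1.5-fold and 2-fold changes were recovered among genes drawn from all tested genes. Changes below 1.5-fold, such as the 1.35-fold one of Dnaja2, were not simulated. Recovery at the level and spread of any single member was not tested.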
